A study of Mus musculus with 3 samples.

Results

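The genes described here encode the platelet-derived growth factor (PDGF) ligands and receptors: the ligands Pdgfa, Pdgfb, Pdgfc and Pdgfd and the receptors Pdgfra and Pdgfrb. They were chosen by gene family, and these 6 genes were all found among the 32285 genes of the count matrices. Nuclei of frozen mouse liver had been sequenced by single-nucleus RNA-seq (sNuc-Seq), with 1 library from a mouse on a normal diet (ND) and 2 libraries from mice with steatohepatitis-related liver fibrosis (STZ-HFHC 1 and STZ-HFHC 2). All mice were male C57BL/6 J with no transgene or deletion, and the STZ-HFHC mice had received 0.2 mg of streptozotocin at 3 days of age and a high-fat, high-cholesterol diet with 41 kcal% fat and 43 kcal% carbohydrate from 4 weeks of age. The age of the sequenced mice at sacrifice was not given in the sources used here. Streptozotocin and the diet came together in the STZ-HFHC mice, so they cannot be told apart from each other. The ND mouse and the STZ-HFHC mice carry different leading codes in their sample names, whose meaning was not given in the sources used here. Anything that went with those codes cannot be told apart from the streptozotocin and the diet.

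PDGFs are secreted dimers that bind receptor tyrosine kinases on cells of mesenchymal origin. PDGF-A and PDGF-C bind mainly PDGFRα, PDGF-B binds both receptors, and PDGF-D binds mainly PDGFRβ. PDGF-A and PDGF-B are cut to their active forms inside the cell by furin-type proteases, whereas PDGF-C and PDGF-D are secreted as latent forms and activated outside it. In liver the receptors are known from hepatic stellate cells, the retinoid-storing pericytes that turn into collagen-producing myofibroblasts in fibrosis, and PDGF-B is a known mitogen of these cells.

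After barcodes with more than 5000 genes, fewer than 200 genes or more than 5% mitochondrial counts were left out, 8494 of 9424 barcodes remained in ND, 8921 of 9923 in STZ-HFHC 1 and, in STZ-HFHC 2, 10921 of 11642, with medians of 4068, 3015 and 4027 unique molecular identifiers (UMIs). The barcodes kept held 42715797 of 77617520 UMIs in ND, and 44350401 of 73942732 and 55632923 of 72934861 in the STZ-HFHC mice. Between 20 and 27 barcodes were shared by any pair of libraries. Clusters were named from marker lists, with the PDGF genes kept out of the clustering, and gave 9 classes written here as "hepatocyte-like" and so on; 2918 nuclei stayed unnamed, mostly in a cluster with endothelial and macrophage markers together. All 10 hepatocyte markers were detected in the hepatocyte-like nuclei of each library. Stellate-like nuclei numbered 1187, 630 and 1314 and came from a cluster of 1045 ND, 4 STZ-HFHC 1 and 1 STZ-HFHC 2 nuclei and one of 142, 626 and 1313, so the groups lay mostly in different clusters. Levels are given as CPM, the UMIs of a gene scaled to the total UMIs of the same nuclei, with exact Poisson 95% intervals, which cover counting error only.

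The PDGF genes differ in length and intron content. In the mm10 genome with GENCODE M21 annotation, Pdgfc (ENSMUSG00000028019) spans chr3:81036416-81214040 on the plus strand and is 97.1% intronic. Pdgfd (ENSMUSG00000032006) spans chr9:6168584-6378850 on the plus strand and is 98.5% intronic. Pdgfa (ENSMUSG00000025856) lies at chr5:138976014-138997370 and Pdgfb (ENSMUSG00000000489) at chr15:79995874-80014977, both on the minus strand. The receptor gene Pdgfra (ENSMUSG00000029231) spans chr5:75152292-75198215 on the plus strand and is 78.2% intronic. Nuclear RNA holds unspliced transcripts, so levels were compared for each gene across nuclei and not between genes.

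Of the members, 4 had an entry in the RefSeq promoter table (build GRCm38.p6). The 250 bases before the RefSeq start are shown for the ligand and receptor genes whose levels were highest in single classes, 5′ to 3′ on the plus strand at chr3:81036166-81036415 for Pdgfc, chr9:6168236-6168485 for Pdgfd and chr5:75152001-75152250 for Pdgfra, with matches to the searched motifs in capitals.
Pdgfc: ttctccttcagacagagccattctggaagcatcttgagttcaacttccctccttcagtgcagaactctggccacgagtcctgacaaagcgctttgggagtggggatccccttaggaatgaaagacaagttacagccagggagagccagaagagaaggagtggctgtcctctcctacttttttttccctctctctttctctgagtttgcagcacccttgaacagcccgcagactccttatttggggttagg
Pdgfd: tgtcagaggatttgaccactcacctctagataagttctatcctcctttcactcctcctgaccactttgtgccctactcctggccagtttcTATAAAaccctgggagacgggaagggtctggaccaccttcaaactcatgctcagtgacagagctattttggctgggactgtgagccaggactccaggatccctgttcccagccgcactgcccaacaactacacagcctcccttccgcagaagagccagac
Pdgfra: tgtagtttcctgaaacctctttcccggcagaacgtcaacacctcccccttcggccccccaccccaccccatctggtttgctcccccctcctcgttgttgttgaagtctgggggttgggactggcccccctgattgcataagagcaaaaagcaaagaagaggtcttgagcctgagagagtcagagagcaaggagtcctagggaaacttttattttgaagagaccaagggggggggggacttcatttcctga

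The motifs searched on both strands were the GC box GGGCGG, the TATA box TATAAA, the AP-1 motif TGANTCA and the TCF/LEF motif ATCAAAG. The only match was the TATA box letters in Pdgfd, which 12.4% of 32851 promoter windows of the same length hold. The GC box is in 32.7% of those windows, the AP-1 letters are in 6.75% and the TCF/LEF letters in 3.21%. A missing match says only that these letters are not in the window.

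Each gene had its own distribution over the liver's nuclei. Both receptors were highest in stellate-like nuclei, Pdgfc and Pdgfd in cholangiocyte-like nuclei and the mean of Pdgfb was highest in monocyte-like and macrophage-like nuclei, whose ranges overlapped with that of cholangiocyte-like nuclei. Pdgfa had no class that stood clear of the others. For Pdgfra and Pdgfrb the 3 libraries' levels in stellate-like nuclei did not overlap with those of any other named class. Means of those classes stayed at or below 8.06 CPM. The unnamed endothelial and macrophage cluster is not among them. It held 0.750%, 18.8% and 10.9% of Pdgfra UMIs and 1.10%, 10.6% and 12.0% of Pdgfrb UMIs by library. Its shares of all UMIs were 0.378%, 9.32% and 8.50%.

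**Figure D1:**
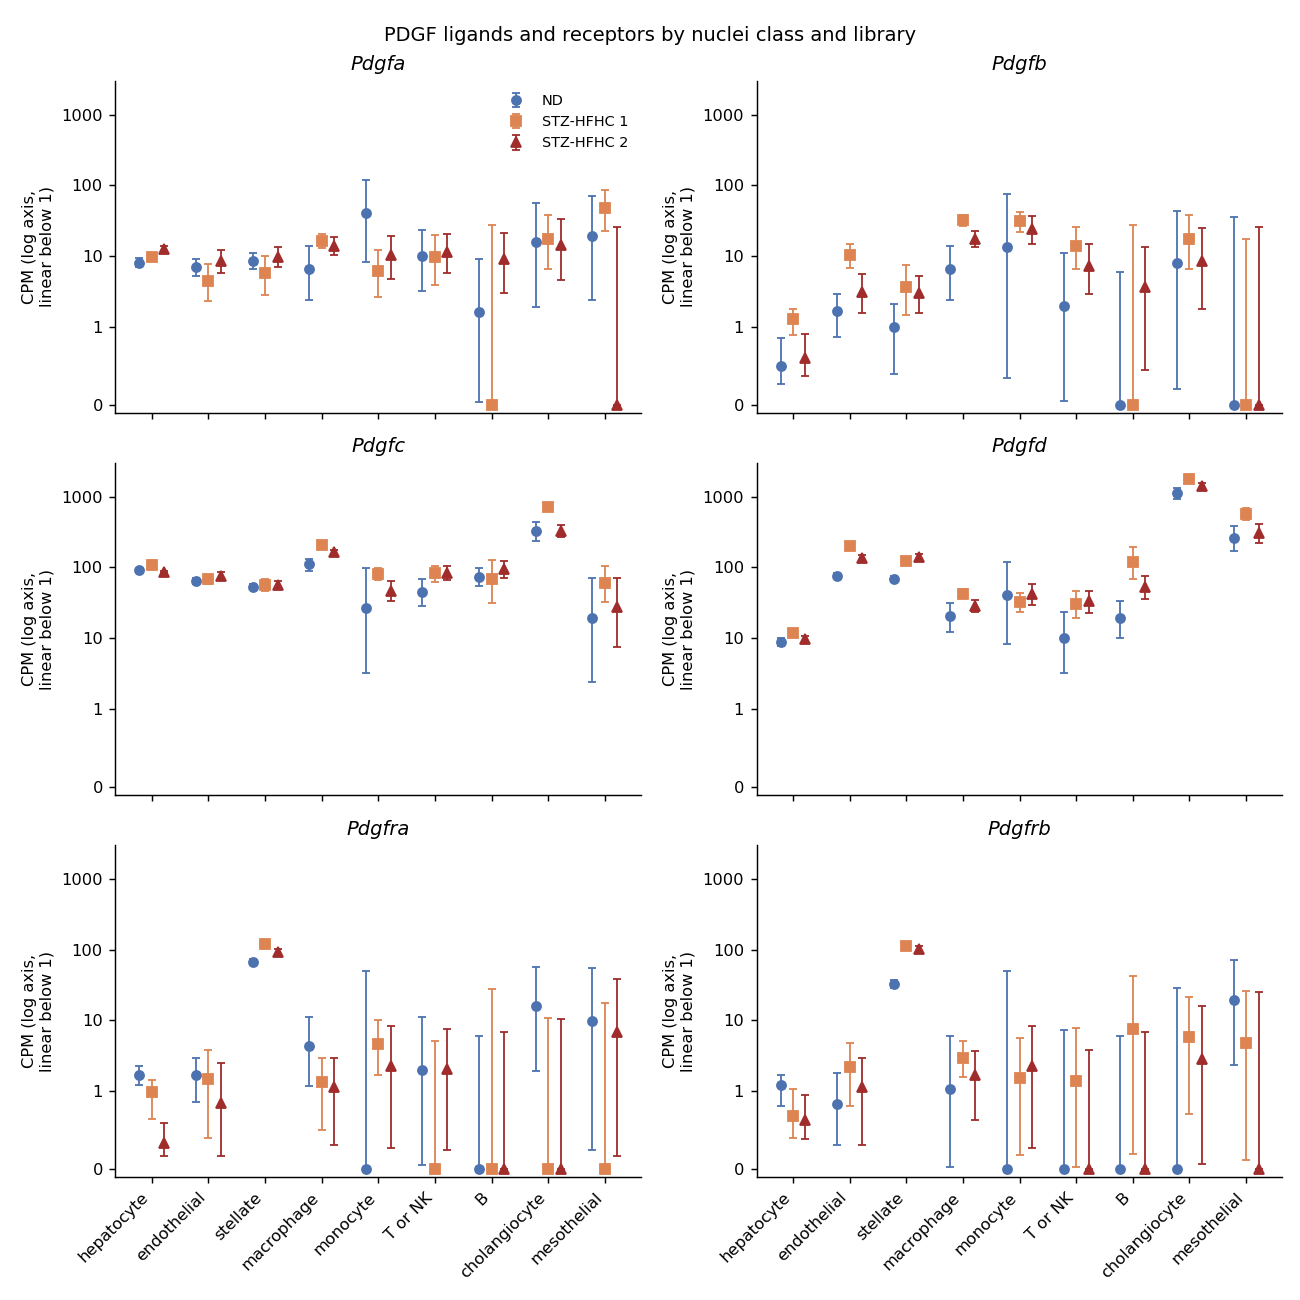
Level of each PDGF gene (one panel a gene) by nuclei class in ND and both STZ-HFHC mice, in CPM on an axis that is logarithmic above 1 and linear below, with 95% Poisson intervals. Pdgfra and Pdgfrb stand at 32.7 to 120 CPM in stellate-like nuclei against means of at most 8.06 CPM in the other named classes. Unnamed clusters are not shown. Pdgfd reaches 1118 to 1773 CPM in cholangiocyte-like nuclei.

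The ligand Pdgfd was highest in nuclei like those of cholangiocytes, the lining cells of bile ducts. Its level there was 1118 CPM (942 to 1318) in ND, 1773 CPM (1634 to 1920) in STZ-HFHC 1, with 1432 CPM (1310 to 1562) in STZ-HFHC 2. A Pdgfd UMI was seen in 93.8%, 86.5% and 79.3% of these nuclei, and in 78.6%, 72.2% and 65.8% after thinning each nucleus to 1000 UMIs, against 1.13% to 1.40% of thinned hepatocyte-like nuclei. The cholangiocyte-like nuclei were few, 32, 104 and 135 by library, but they held 9.50%, 20.1% and 17.2% of all Pdgfd UMIs of the nuclei kept.

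Mesothelial-like nuclei, from the liver's outer lining, came next for Pdgfd at 263, 575 and 304 CPM from 27, 122 and 44 UMIs. Their range over libraries did not overlap with that of cholangiocyte-like nuclei above or endothelial-like nuclei below. Endothelial-like nuclei held 76.2, 205 and 137 CPM and stellate-like nuclei 69.4, 124 and 143 CPM, so these neighbours overlapped. Hepatocyte-like nuclei were lowest at 8.77 to 11.7 CPM.

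Pdgfc was the broad ligand. Cholangiocyte-like nuclei had 331 CPM in ND, 721 CPM in STZ-HFHC 1, with 328 CPM in STZ-HFHC 2, from 42, 246 and 116 UMIs. Macrophage-like nuclei had 111 (90.2 to 134), 210 (197 to 224) and 163 CPM (150 to 177), and hepatocyte-like nuclei 91.5, 107 and 86.5 CPM. These 3 classes did not overlap in their ranges over the libraries, while B-like and T or NK-like nuclei overlapped with hepatocyte-like nuclei. Hepatocyte-like nuclei were the main source, with 68.8%, 54.4% and 60.7% of the gene's UMIs. Their shares of all UMIs were similar, at 60.6%, 59.6% and 63.4%.

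Within hepatocyte-like nuclei Pdgfc was graded along the liver lobule. Nuclei were split, without the PDGF genes, by whether fixed pericentral genes (such as Glul and Cyp2e1) or periportal genes (such as Hal and Cyp2f2) held the larger share of their UMIs. The periportal list had the larger sum in most subclusters, so nuclei with pericentral markers could fall on the periportal side. A subcluster of 2360 ND nuclei with 5 pericentral genes raised had sums of 2269 CPM (pericentral) and 5325 CPM (periportal). The ratios are therefore read within each liver. In ND, Pdgfc stood at 236 CPM in 661 pericentral nuclei and 74.5 CPM in 4730 periportal nuclei, a ratio of 3.17 (2.90 to 3.48). The ratio was 2.01 (1.84 to 2.20) in STZ-HFHC 1, from 190 and 94.4 CPM, and 2.64 (2.43 to 2.88) in STZ-HFHC 2, from 195 and 73.8 CPM. All 3 livers thus had the higher level on the pericentral side, and after thinning the ratios were 3.02, 1.91 and 2.57.

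The other members showed no such split in all 3 livers. For Pdgfa the ratios were 1.10, 1.05 and 1.26, each with an interval that held 1. Pdgfd had ratios of 1.15, 0.645 and 1.52, lower on the pericentral side in STZ-HFHC 1 and higher there in STZ-HFHC 2. Among STZ-HFHC subclusters Pdgfc had 43.1 and 38.6 CPM in the most periportal one and 194 and 182 CPM in a pericentral one. In ND the largest subclusters did not keep a strict order. Pdgfc stood at 39.5 CPM in the one with the lowest pericentral sum (342 CPM), at 133 CPM (126 to 140) in one with a sum of 2269 CPM, and at 99.0 CPM (89.2 to 110) in the one with the highest sum, 2387 CPM.

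**Figure D2:**
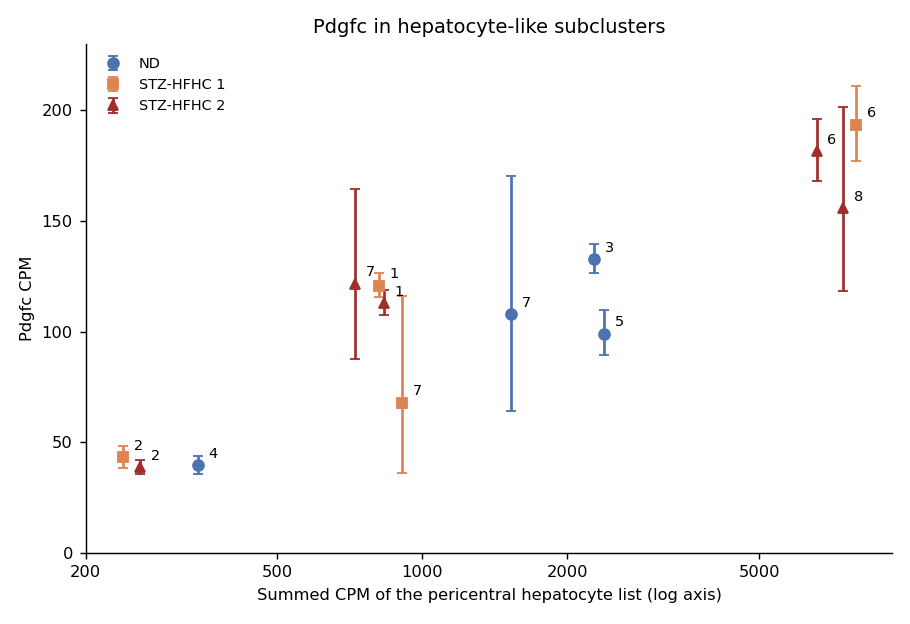
Pdgfc level (CPM, with 95% Poisson intervals) of each numbered hepatocyte-like subcluster and library against the summed CPM of the pericentral gene list (log axis). Subclusters lowest in pericentral genes lie at 38.6 to 43.1 CPM of Pdgfc and those highest in them at 156 to 194 CPM.

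Pdgfb, the ligand of both receptors, was sparse. Macrophage-like nuclei had 6.44 CPM (2.36 to 14.01; 6 UMIs) in ND, 32.0 CPM (27.0 to 37.7; 142 UMIs) in STZ-HFHC 1, with 17.6 CPM (13.5 to 22.6; 62 UMIs) in STZ-HFHC 2. Monocyte-like nuclei had 13.4 CPM from 1 UMI in ND and 30.8 and 23.9 CPM from 40 and 21 UMIs in the STZ-HFHC mice. Cholangiocyte-like nuclei had 7.87, 17.6 and 8.49 CPM from 1, 6 and 3 UMIs. The ranges of these 3 classes over libraries overlapped, and hepatocyte-like nuclei held only 0.502 to 1.29 CPM.

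The main source of Pdgfa UMIs was hepatocyte-like nuclei, with 61.7%, 58.5% and 69.2% of them, near their 60.6%, 59.6% and 63.4% of all UMIs. Pdgfa stood there at 8.07 (7.01 to 9.24), 9.80 (8.64 to 11.1) and 12.6 CPM (11.5 to 13.8). The ND level there lay below both STZ-HFHC levels, by ratios of 1.21 (1.01 to 1.46) and 1.56 (1.32 to 1.85). Macrophage-like nuclei had 6.44, 16.5 and 13.9 CPM, from 6 UMIs in ND.

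Macrophage-like nuclei differed among themselves in Pdgfa. A subcluster led by lipid-associated macrophage genes, with Gpnmb, Atp6v0d2 and Mmp12 among its top genes, held 0 ND, 353 STZ-HFHC 1 and 153 STZ-HFHC 2 nuclei; the contrast is a description, since the same nuclei formed the subclusters. In it Pdgfa stood at 47.1 CPM in STZ-HFHC 1, with 41.3 CPM in STZ-HFHC 2, against 6.72 and 10.4 CPM in a subcluster with Kupffer cell markers such as Timd4. The ratios were 7.01 (3.48 to 15.6) and 3.97 (1.69 to 9.79), the same way in both mice. A Pdgfa UMI was present in 28 of 353 and 15 of 153 nuclei of the first subcluster and in 10 of 774 and 10 of 486 of the second.

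The other macrophage ligands did not follow that order as clearly. For Pdgfb the values were 65.3 against 42.98 CPM in STZ-HFHC 1, a ratio of 1.52 (1.05 to 2.19), and 46.5 against 28.1 CPM in STZ-HFHC 2, a ratio of 1.66 (0.859 to 3.12). Pdgfc had ratios of 0.780 and 1.15, on opposite sides of 1. The ND library had 3 nuclei in the Kupffer-marked subcluster, and 226 of its 236 macrophage-like nuclei lay in another one, which had 6.55 CPM of Pdgfb. Conditions could therefore not be compared within a macrophage subcluster.

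**Figure D3:**
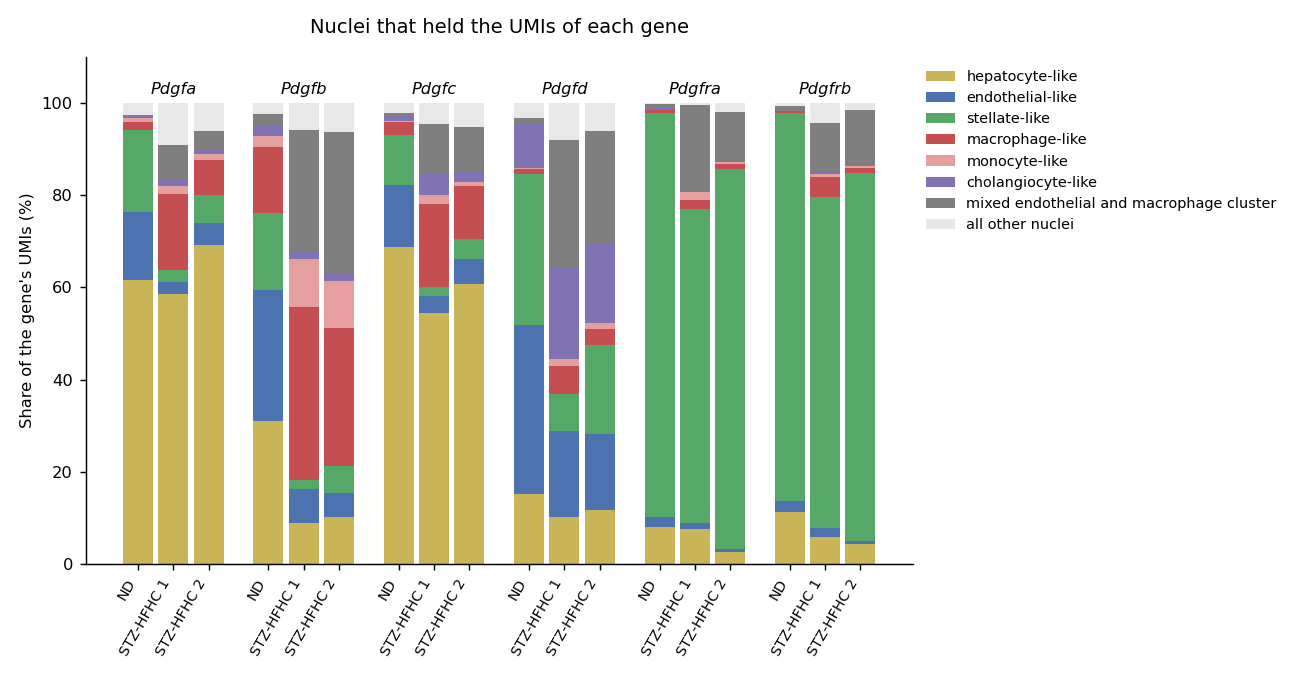
Share of each gene's UMIs that came from each nuclei class or unnamed cluster, in percent, by library. Stellate-like nuclei held 68.2% to 87.4% of Pdgfra and 71.6% to 84.2% of Pdgfrb UMIs, and hepatocyte-like nuclei 54.4% to 68.8% of Pdgfc UMIs.

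The sources of Pdgfb moved with the libraries' make-up. In ND, 31.0% of 42 Pdgfb UMIs came from hepatocyte-like and 14.3% from macrophage-like nuclei. In STZ-HFHC 1 macrophage-like nuclei held 37.5% of 379 UMIs and the unnamed endothelial and macrophage cluster 26.4%, and in STZ-HFHC 2 these shares were 29.95% and 30.9% of 207 UMIs. Macrophage-like nuclei numbered 236, 1735 and 1208, and the unnamed cluster 42, 762 and 927. Over all nuclei kept, Pdgfb had 0.983, 8.55 and 3.72 CPM, ratios to ND of 8.69 (6.31 to 12.3) and 3.78 (2.71 to 5.41).

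Most receptor UMIs came from stellate-like nuclei. The locus of Pdgfrb (ENSMUSG00000024620) is chr18:61045150-61085061 on the plus strand of mm10, with 86.3% of it intronic. Pdgfra had 66.5 CPM (60.6 to 72.8; 466 UMIs) in ND, 120 CPM (105 to 136; 232 UMIs) in STZ-HFHC 1, with 93.1 CPM (83.9 to 103.1; 370 UMIs) in STZ-HFHC 2. Pdgfrb had 32.7 CPM (28.6 to 37.2; 229 UMIs), 112 CPM (97.4 to 128; 217 UMIs) and 101.9 CPM (92.2 to 112; 405 UMIs). Both receptors stood lowest in ND, whose intervals lay below those of both STZ-HFHC mice.

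At the nucleus level, a Pdgfra UMI was seen in 28.0%, 27.1% and 21.6% of stellate-like nuclei and a Pdgfrb UMI in 16.4%, 25.1% and 22.4%, at median depths of 4720, 2204 and 2219 UMIs. Thinned to 1000 UMIs, the shares were 10.8%, 12.7% and 9.81% for Pdgfra and 6.54%, 10.5% and 10.6% for Pdgfrb. In hepatocyte-like nuclei, which should lack both, unthinned shares were 0.230% to 0.866% for Pdgfra and 0.460% to 0.599% for Pdgfrb at median depths of 4030 to 7922.5 UMIs. UMIs of both receptors were found together in 65 of 1187 stellate-like nuclei in ND and in 57 of 630 and 75 of 1314 in the STZ-HFHC mice.

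The question of whether the PDGF genes differed between the STZ-HFHC and ND livers was tested per class with edgeR's quasi-likelihood test on summed UMIs, adjusted over all genes by the Benjamini-Hochberg method. With 1 ND library the spread comes from the STZ-HFHC pair alone, and the ND mouse was assumed to vary alike. The p-values therefore carry no measure of differences between ND mice. In stellate-like, B-like and cholangiocyte-like nuclei the prior degrees of freedom were infinite, so the spread was pooled over genes. There the p-values and SE do not use a gene's own spread between mice. Of 33 member and class pairs tested, 3 passed an adjusted p of 0.05. All were in stellate-like nuclei and higher in STZ-HFHC, where 14.1% of 14021 genes tested were called higher and 27.8% were called in either direction. In the other classes edgeR called 5.43% (endothelial-like), 2.64% (hepatocyte-like), 0.59% (macrophage-like), 0.816% (monocyte-like), 4.83% (T or NK-like), 6.47% (B-like), 4.62% (cholangiocyte-like) and 0.435% (mesothelial-like) of genes.

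Pdgfrb rose in STZ-HFHC stellate-like nuclei by 1.66 ± 0.27 (log2 fold change ± SE, n = 1 and 2, edgeR adjusted p = 1.8e-08), with CPM ratios to ND of 3.42 (2.83 to 4.14) and 3.12 (2.65 to 3.68). Pdgfd rose by 0.90 ± 0.25 (edgeR adjusted p = 0.0018), with ratios of 1.79 and 2.06. Pdgfra rose by 0.63 ± 0.25 (edgeR adjusted p = 0.046), with ratios of 1.80 and 1.40. Both mice stood above ND for each of these genes. Pdgfb, from 7, 7 and 12 UMIs, had 1.63 ± 0.85 (edgeR adjusted p = 0.15), and Pdgfc and Pdgfa had 0.07 ± 0.27 and -0.13 ± 0.49.

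The stellate-like class did not have the same make-up in the groups, and the receptor levels moved with it. The sum of the 10 stellate markers, all of them detected, was 1993 CPM in ND and 6136 and 5432 CPM in the STZ-HFHC mice, while the 10 hepatocyte markers summed to 17827, 7852 and 9883 CPM. Of the stellate markers, 9 of 10 were higher than in ND in both mice, with median ratios of 2.63 and 2.79. The Pdgfrb ratio lay above 7 and 6 of the 10 marker ratios and the Pdgfra ratio above 3 and 1. The part of hepatocyte RNA and of depth in the calls was not tested.

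Counted against the stellate markers instead of all UMIs, the receptors parted. Pdgfrb had 16.4 (14.3 to 18.7), 18.2 (15.9 to 20.8) and 18.8 (17.0 to 20.7) UMIs per 1000 marker UMIs, with overlapping intervals. Pdgfra had 33.4 (30.4 to 36.6) in ND and 19.5 (17.0 to 22.2) and 17.1 (15.4 to 19.0) in the STZ-HFHC mice, where both intervals lay below that of ND. On this scale Pdgfd was also highest in ND, at 34.8, 20.2 and 26.3. The scale leans on few genes that differ between the groups: Reln alone had 826, 3023 and 2351 CPM of the marker sums. Single marker ratios to ND ran from 0.936 to 4.27 in STZ-HFHC 1 and from 0.848 to 3.93 in STZ-HFHC 2. Against the markers with smaller ratios than Pdgfra, 3 and 1 of the 10, Pdgfra would not be lower.

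A second clustering, over all deposited barcodes, gave a stellate-like class in which ND was not poorer in stellate markers. It held 350 ND nuclei, 346 of them among the 1187 of the class above. Of its 639 and 1323 STZ-HFHC nuclei, 622 and 1298 were among the 630 and 1314 above. Another cluster, of 1440 ND, 1 STZ-HFHC 1 and 1 STZ-HFHC 2 barcodes, had all 10 stellate markers raised. It stayed unnamed because 60% of the endothelial markers were raised too. The second class thus held a part of the main ND class and nearly all of the main STZ-HFHC class. Its marker sums were 6707, 5474 and 5055 CPM. There Pdgfra stood at 254 CPM (222 to 288) in ND and 110 (96.5 to 124) and 86.3 CPM (77.8 to 95.4) in STZ-HFHC, and Pdgfrb at 118 (97.2 to 142), 103.1 (90.2 to 117) and 94.9 CPM (86.0 to 104). The fitted log2 fold changes were then -1.41 for Pdgfra (edgeR adjusted p = 0.055), -0.29 for Pdgfrb (0.56) and -0.53 for Pdgfd (0.32), so the direction of all 3 calls turned. Over the 9 alternatives tried, adjusted p ran from 0.022 to 0.89 for Pdgfra, from 1.7e-08 to 0.56 for Pdgfrb and from 5.5e-06 to 0.32 for Pdgfd.

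The ratio of the receptors to each other needs no scaling; it was chosen after the values had been seen. Stellate-like nuclei held 2.03 Pdgfra UMIs per Pdgfrb UMI (1.73 to 2.39) in ND, 1.07 (0.885 to 1.29) in STZ-HFHC 1 and 0.914 (0.791 to 1.05) in STZ-HFHC 2. Neither STZ-HFHC interval overlapped with that of ND. With 1 ND mouse there is no replicate check of the ND value.

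ND also had the highest ratio in other sets of nuclei, while the order of the STZ-HFHC mice varied. Over all nuclei kept, whose receptor UMIs are mostly those of the stellate-like class, the ratio was 1.96 (1.69 to 2.28), 1.12 (0.958 to 1.31) and 0.882 (0.775 to 1.00). In the kept nuclei outside that class it was 1.56 (1.05 to 2.34), 1.26 (0.937 to 1.69) and 0.760 (0.560 to 1.03), so the intervals of ND and STZ-HFHC 1 overlapped. In the barcodes that the limits had left out, it was 2.03 (1.69 to 2.44), 0.855 (0.605 to 1.21) and 1.09 (0.709 to 1.68), from counts that share no nuclei with those above. In the stellate-like class of the second clustering it was 2.15 (1.70 to 2.72), 1.06 and 0.909. After thinning, the intervals of ND (1.37 to 2.41) and STZ-HFHC 1 (0.944 to 1.82) overlapped, at ratios of 1.81 and 1.31.

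**Figure D4:**
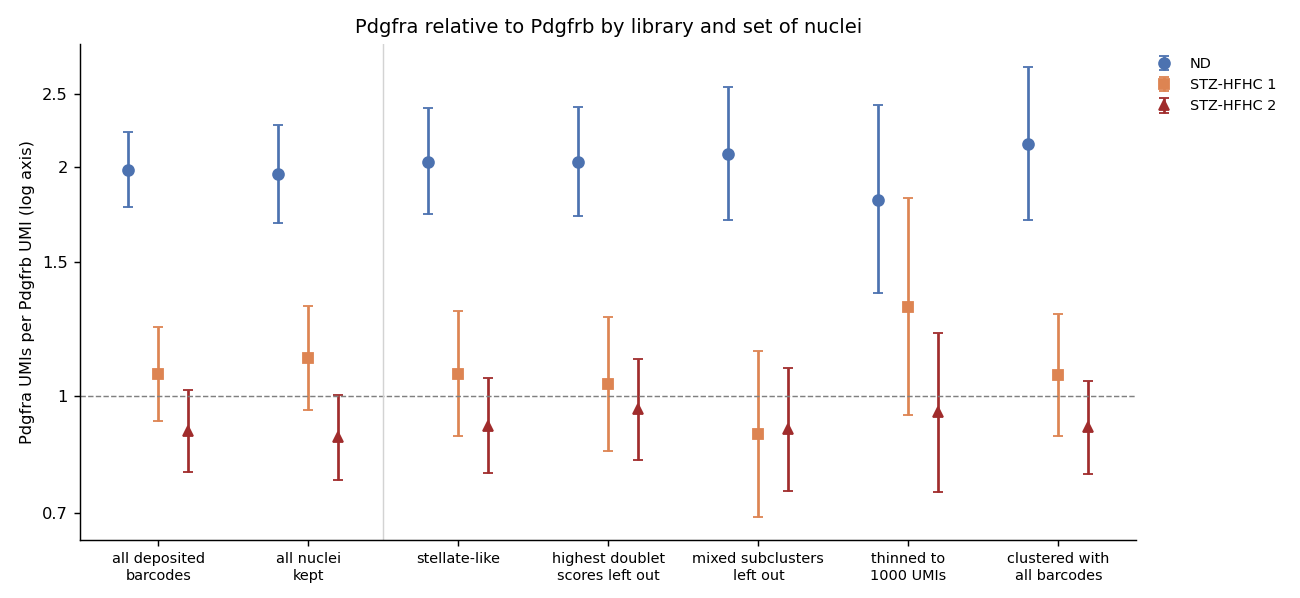
Pdgfra UMIs per Pdgfrb UMI in each library for several choices of nuclei, on a log axis with 95% intervals. The dashed line marks 1; ND lies at 2.03 in stellate-like nuclei, 1.96 in all nuclei kept and 1.99 over all deposited barcodes, while STZ-HFHC values lie between 0.882 and 1.12 in these sets.

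The ratio was also read in each subcluster of the stellate-like class. Most subclusters came mainly from ND or from STZ-HFHC, so they mostly compare libraries again. The 3 subclusters made up mainly of ND nuclei had ratios of 1.94, 1.87 and 2.32, at very different purity. The purest of them, 58 nuclei with a marker sum of 13854 CPM, had 498 CPM of Pdgfra and 214 CPM of Pdgfrb. The main STZ-HFHC subcluster, with marker sums of 8865 and 8811 CPM, had 137 and 135 CPM of Pdgfra and 153 and 149 CPM of Pdgfrb, with ratios of 0.891 and 0.907. A second STZ-HFHC subcluster, which also carried macrophage markers, had 1.37 (0.911 to 2.08) and 0.894 (0.669 to 1.19). A subcluster present in all libraries and with many high doublet scores had ratios of 1.47 (0.727 to 3.04), 1.39 (0.835 to 2.35) and 1.00 (0.656 to 1.52). These intervals overlapped, so a difference between the libraries was not seen within this subcluster, where counts were low.

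**Figure D5:**
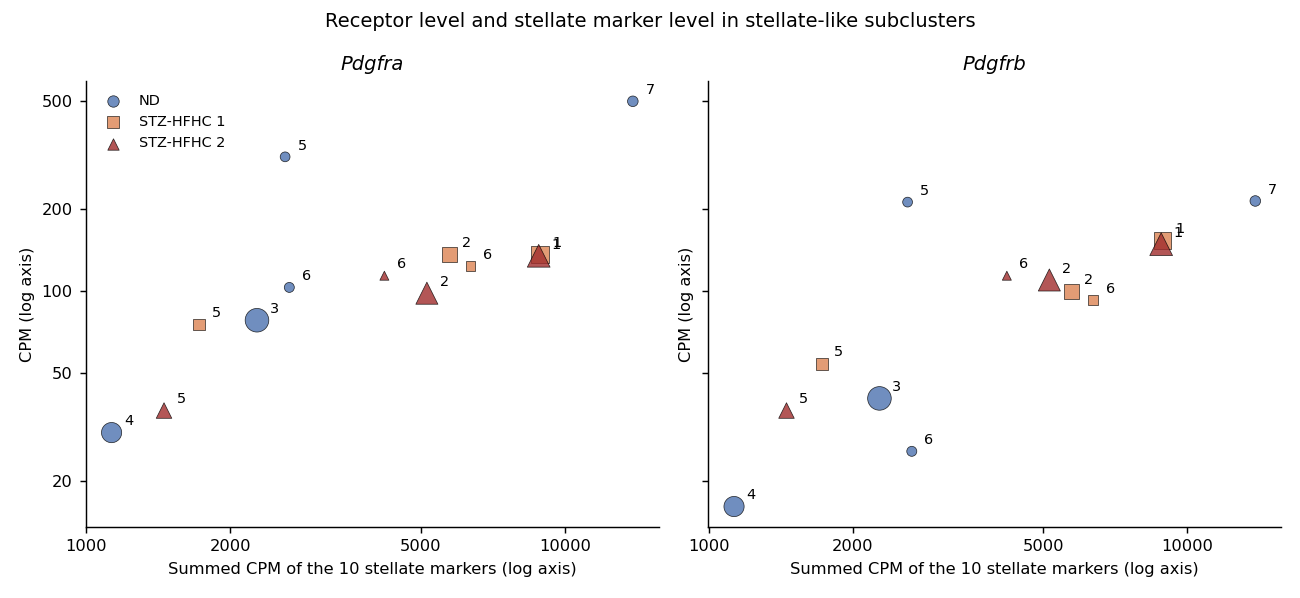
Pdgfra (left) and Pdgfrb (right) level in CPM against the summed CPM of the 10 stellate markers, both on log axes, for each numbered stellate-like subcluster and library, with point area growing with the number of nuclei. Both receptors are lowest in ND subcluster 4 (30.2 and 16.2 CPM), which also has the lowest marker sum; the purest ND subcluster (7) stands at 498 CPM of Pdgfra and 214 of Pdgfrb, and the main STZ-HFHC subcluster (1) at 137 and 135 of Pdgfra and 153 and 149 of Pdgfrb.

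Pdgfd in endothelial-like nuclei was higher in both STZ-HFHC mice by CPM, with ratios of 2.68 (2.38 to 3.02) and 1.79 (1.58 to 2.03), but the difference did not pass the test (log2 fold change 1.02, edgeR adjusted p = 0.10). The sum of the endothelial markers moved alike, at 1994, 4864 and 3355 CPM. Per 1000 of these marker UMIs Pdgfd had 38.2, 42.0 and 40.7, with overlapping intervals. An ND subcluster of median depth 1786 UMIs had 160 CPM (141 to 181), against 204 (176 to 234) and 205 CPM (179 to 234) in the largest STZ-HFHC subcluster. That ND subcluster held 409 of 1186 ND nuclei, fewer than another of 750, so the pair does not stand for the class. Without subclusters that carried markers of another class, the whole class had 76.2, 261 and 227 CPM.

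In macrophage-like nuclei Pdgfb had CPM ratios to ND of 4.97 (2.23 to 13.8) and 2.74 (1.19 to 7.75) and Pdgfc of 1.90 and 1.48. Neither passed the test, at log2 fold changes of 1.73 (edgeR adjusted p = 0.19) and 0.54 (0.32). The macrophage marker sums were 1003, 2562 and 1467 CPM, and per 1000 marker UMIs Pdgfb had 6.42 (2.35 to 14.02), 12.5 (10.51 to 14.7) and 12.02 (9.20 to 15.4). Without subclusters that carried markers of another class, both genes passed, at 2.28 (edgeR adjusted p = 0.011) and 0.92 (0.024). In that fit 23.1% of all genes were called. Endothelial-like Pdgfd passed at 1.56 (edgeR adjusted p = 4.3e-06), where 31% of all genes were called. Hepatocyte markers did not count as those of another class there. Kept subclusters of 226 ND macrophage-like and of 750 and 409 ND endothelial-like nuclei had 8, 6 and 6 of them raised. The part of hepatocyte RNA in these calls was not tested. Adjusted p over the alternatives ran from 0.011 to 0.71 for Pdgfb, from 0.024 to 0.96 for Pdgfc and from 4.3e-06 to 0.20 for endothelial-like Pdgfd.

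Hepatocyte-like nuclei gave no call for a member; on simulated data the test there recovered 6% of genes changed 2-fold and 63% of those changed 4-fold. Pdgfc, whose main source they are, had a log2 fold change of -0.03 (edgeR adjusted p = 0.95), with 1 mouse above and 1 below ND. Pdgfa had 0.36 (edgeR adjusted p = 0.54) and Pdgfra, from 43, 26 and 12 UMIs, had -1.46 (0.29). B-like Pdgfd, from 12, 16 and 29 UMIs, had 1.81 (edgeR adjusted p = 0.051).

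The proteins that process or bind PDGFs were read in stellate-like nuclei, where 7 of 10 had enough counts. Of these, 3 rose, where 14.1% of all genes were called higher: Thbs1, whose product thrombospondin binds growth factors, from 0.856 CPM to 17.0 and 19.9 CPM; Sparc, a matrix protein that binds PDGF, from 36.1 to 142 and 133 CPM; and Plat, the tissue plasminogen activator that activates PDGF-C, from 0.143 CPM (1 UMI) to 12.9 and 3.02 CPM. Plg, the plasminogen made by hepatocytes, fell by 2.17 and Lrp1, an endocytic co-receptor, fell by 0.83 on the log2 scale. The hepatocyte markers were lower in the same nuclei, as given above, and their part in the falls was not tested. The list's median was -0.43, against -0.01 over all genes.

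Downstream of the receptors, adaptors and enzymes were mostly not called. Of 19, 4 rose, near the 14.1% of all genes in these nuclei that were called higher, and 1 fell, where 13.7% of all genes were called lower. The list's median was 0.10. Nck2, an adaptor that links receptors to actin, rose by 1.81 ± 0.26, Gab1, a docking protein, by 1.36 ± 0.25, the kinase Src by 2.07 ± 0.38 and the PI3-kinase subunit Pik3r1 by 0.79 ± 0.24. Stat5b fell by 0.73. The summed stellate markers were also higher in these nuclei in STZ-HFHC, as given above, and their part in the rises of this and the next lists was not tested.

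Of 12 genes that damp receptor signalling 8 rose, where 14.1% of all genes were called higher, with a median of 0.92. They included Spred1, an inhibitor of the RAS to RAF step, by 1.83 ± 0.26 (edgeR adjusted p = 3.6e-11), its relative Spry2 by 2.48 ± 0.49, and the ubiquitin ligases Cbl and Cblb by 0.99 ± 0.25 and 0.94 ± 0.24. Of 8 growth factor early genes, 6 rose against the same 14.1%, with a median of 1.70. Fos went from 1.57 to 48.9 and 17.6 CPM, Egr1 from 13.3 to 74.7 and 35.2 CPM and the cyclin Ccnd1 from 1.86 to 19.1 and 7.55 CPM. Jun had -0.53 ± 0.26 (edgeR adjusted p = 0.12) and Srf -0.16 ± 0.71.

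Lists of stellate state were read in the same nuclei, where the summed stellate markers were also higher in STZ-HFHC, as given above. Of 16 activation genes 13 rose, where 14.1% of all genes were called higher, among them Col1a1 from 1.71 to 133 and 34.0 CPM, Col3a1 from 24.5 to 443 and 201 CPM and Postn from 8.99 to 81.4 and 95.6 CPM, with a median of 2.81. Of 10 retinoid and quiescence genes 7 rose against the same 14.1%, among them Rgs5, Lrat and Reln, with a median of 1.31. Several of the latter are stellate markers themselves. With the second clustering, over all barcodes, edgeR called 0 genes of the lists named here higher, where 0.195% of all genes were, and called Plg and Ecm1 lower. At an unadjusted p under 0.05, 5 activation genes, 2 retinoid and quiescence genes, 2 damping genes and 1 early gene were higher in that fit. The medians were then 0.78 for activation genes, -0.31 for retinoid and quiescence genes, 0.42 for the damping genes and 1.00 for the early genes.

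The genes whose level was most like each member's were read over the 27 class and library units by Pearson's r of log2(CPM + 1), among 15374 genes. The units share libraries and depth, so r is a description. Pdgfrb was most like Bmp5 (0.96), Lhx2 (0.92), a stellate transcription factor and one of the stellate markers, and Lama2 (0.92). Pdgfra was most like Pde8b (0.84), Lamb1 (0.83) and Piezo2 (0.81). Pdgfd was most like Ptpn14, Auts2 and Schip1 (0.89, 0.89 and 0.88), and Pdgfc like Pkhd1 (0.84), a cholangiocyte marker, Ccdc162 and Shc2. Pdgfb was most like Rasa4 (0.91), Amz1 and Fxyd5, and Pdgfa, with few counts, like Trmt10b (0.86), Pigc and Mrpl39.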

How the data were processed

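Single-nucleus RNA of 3 frozen mouse livers was measured with 10x Genomics 3′ chemistry. The deposited count matrices hold UMI counts per gene and barcode, made by the authors with Cell Ranger 7.0.1 on mm10, per the submitters' processing notes; expression was not normalized and replicates were not pooled. Members and gene lists were chosen with earlier results of these data known.

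Of 30989 barcodes, 28336 had 200 to 5000 genes and no more than 5% of mitochondrial counts, the limits the study states, and entered the analysis. The study's own cell number after filtering is also 30989, that of all deposited barcodes. The nuclei kept here are therefore fewer than those it reports. Nuclei were clustered with Scanpy 1.11.5 (2000 variable genes, 30 components, 15 neighbours, Leiden resolution 1), leaving out 47 genes (the members, their processing and signalling genes). Clusters were named from 16 fixed marker lists. A class needed at least 3 markers and 40% of its list raised 2-fold. Clusters with over 50% of an unrelated list raised stayed unnamed. Clusters with too few raised markers had a second step. They became hepatocyte-like if at least 3 hepatocyte markers were raised 2-fold, or stood 1.2-fold above other classes of the same library. This step named clusters of 1999, 1568, 98, 1050, 2577 and 2514 nuclei, most of the hepatocyte-like class. The naming rule was revised once after clusters had been seen, with Pdgfra seen among the top genes of one cluster but no other member value. Doublets were kept: Scrublet's threshold marked at most 1 nucleus a library, so the 8% with the highest scores were left out only as an alternative.

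UMIs were summed per library and class (at least 20 nuclei). edgeR 4.0.16 (quasi-likelihood test, TMM, genes with at least 20 UMIs, Benjamini-Hochberg adjusted p under 0.05, R 4.3.3) compared 2 STZ-HFHC with 1 ND library, which leaves 1 residual degree of freedom; the SE is the log2 fold change divided by the root of the F statistic. Replicates are separate mice. Ratios of counts carry conditional exact binomial 95% intervals, shares are of nuclei or UMIs, and intervals cover counting error only. On data simulated for the 14021 stellate-like genes, the test recovered 29% of genes changed 2-fold and 98% of those changed 4-fold, with 8 false calls. For the 16784 hepatocyte-like genes it recovered 6% and 63%, with 3 false calls. All genes of a class were drawn at 1 dispersion (0.0286 and 0.0591), alike in ND and STZ-HFHC, and changes were given only to genes with more counts. The groups were simulated with the same make-up of nuclei, so these rates and false calls do not cover a class whose make-up differs between groups. Alternatives were RLE size factors, DESeq2 1.42.0, no filter, thinning to 1000 UMIs, other resolutions and all deposited barcodes. Named genes were the members, up to 6 genes per list (called genes by adjusted p, then by UMIs), the 3 genes most like each member and needed markers. One list of signalling genes is not reported here.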

Additional observations from a re-analysis of the deposited data

Results flagged for a closer look

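Pdgfra had mean log2 ratios of opposite sign in the stellate-like and hepatocyte-like classes, but the stellate-like sign depended on the processing. Its mean log2 ratio to ND was 0.67 in stellate-like nuclei, higher in both STZ-HFHC mice, and -1.49 in hepatocyte-like nuclei, lower in both; the difference between the classes was not tested. Thinned to 1000 UMIs, the stellate-like value was -0.037, and with all deposited barcodes clustered Pdgfra stood at 254 CPM in stellate-like nuclei of ND and at 110 and 86.3 CPM in those of the STZ-HFHC mice. Per 1000 stellate marker UMIs it was also lower in both mice, at 33.4, 19.5 and 17.1, so the opposite signs were not found in these settings. The hepatocyte-like values rest on 43, 26 and 12 UMIs in ND, STZ-HFHC 1 and STZ-HFHC 2. The summed stellate markers in the same hepatocyte-like nuclei were 238, 100 and 86.2 CPM, which moves the same way, and their part in the result was not tested.

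The barcodes above the limits on genes or mitochondrial counts (930 in ND, 1002 and 721 in the STZ-HFHC mice) entered no test of the main clustering, only the receptor ratio and the clustering over all barcodes. The levels of 3 ligands in them were higher in both STZ-HFHC mice than in ND beyond counting error. Pdgfc had 57.1 CPM in ND and 110 and 100.7 CPM in the STZ-HFHC mice. Pdgfa had 7.74, 10.2 and 12.5 CPM, and Pdgfb had 1.40, 4.29 and 3.81 CPM. Pdgfra had 10.46, 2.20 and 2.77 CPM there, lower in both STZ-HFHC mice, and Pdgfrb had 5.16 (4.43 to 5.97), 2.57 (2.02 to 3.21) and 2.54 CPM (1.85 to 3.41), also lower in both, whereas it was called higher in stellate-like nuclei.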

How the results depend on the processing

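No paired analysis was possible because the single ND library shares at most 1 replicate number with the STZ-HFHC libraries. Leaving out a mouse gives ratios only, since 1 library a group leaves no residual degree of freedom. Endothelial-like nuclei could not be fitted at Leiden resolution 0.5.

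With all deposited barcodes the log2 fold changes turned to -1.41 (Pdgfra), -0.29 (Pdgfrb) and -0.53 (Pdgfd), and that of Pdgfc in hepatocyte-like nuclei from -0.027 to 0.064. Thinned to 1000 UMIs, Pdgfra had -0.077 in the fit and -0.037 as mean log2 ratio to ND, against 0.67 without thinning, Pdgfrb had 0.63 (edgeR adjusted p = 0.12) and Pdgfd 0.62 (0.093). Pdgfra also lost its call under DESeq2 (adjusted p = 0.35), without a filter (0.18), at resolutions 0.5 (0.39) and 2 (0.060) and without subclusters carrying markers of another class (0.22), and Pdgfd lost its under DESeq2 (0.073). Causes were not tested.

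Genes called in stellate-like nuclei numbered 3904, and 1482 with DESeq2, 2131 thinned and 74 with all deposited barcodes. In endothelial-like nuclei they numbered 748, and 1424 with RLE, 2336 without a filter, 1274 without high doublet scores, 1376 thinned, 157 at resolution 2 and 4123 without mixed subclusters. In macrophage-like nuclei they numbered 77, and 462 with RLE, 501 with DESeq2, 2005 without a filter, 1171 without high doublet scores, 245 thinned, 0 at resolution 0.5, 165 at resolution 2, 293 with all barcodes and 2796 without mixed subclusters. In hepatocyte-like nuclei they numbered 443, and 1083 with DESeq2, 2760 without a filter, 701 thinned, 272 at resolution 2 and 231 with all barcodes. Over all nuclei kept they numbered 14, and 530 with RLE, 1843 with DESeq2, 2969 without a filter, 0 without high doublet scores, 791 thinned, 230 with all barcodes and 101 without mixed subclusters. Called member and class pairs numbered 3 of 33 tested, and 1 of 33 with DESeq2 and 0 of 25 thinned. With all barcodes they were 1 of 35, and without mixed subclusters 6 of 31. In that last setting 39.3% of all genes were called in stellate-like, 31% in endothelial-like and 23.1% in macrophage-like nuclei. It did not count hepatocyte markers as those of another class.

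The log2 ratio of Pdgfra per Pdgfrb to ND was -1.04, and -1.22 without mixed subclusters and -0.70 thinned. Leaving out either STZ-HFHC mouse gave -0.93 to -1.16. Under the alternatives 136 values kept their direction and side of the threshold or stayed within the spread between mice, 45 moved further than that, 8 lost their call, 5 gained one and 6 reversed. At an unadjusted p under 0.05, the edgeR fits with 0 calls had 1098 genes (macrophage-like, resolution 0.5) and 4295 genes (all nuclei kept, without high doublet scores).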
